A study of Mus musculus with 6 samples.

Results

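The genes described here are 10 transcription factor genes that act in the developing nervous system, several of them also in other tissues. The 10 are Pou4f1, Pou3f2, Pou3f3, Pax6, Lmx1b, Nkx2-1, Foxp2, Prox1, Bcl11a and Sall1. They were chosen by name, as 10 of the 35275 genes of one count table, because their counts were higher in cells labelled as overexpressing the Nogo-B receptor NgBR than in wild-type cells. Their own levels in that comparison are therefore given as a description, without a test. The study profiled NIH3T3 cells, an established line of mouse embryo fibroblasts, by mRNA-seq. The wild-type group held 3 libraries from NIH3T3 cells labelled wild type. The other group held 3 libraries labelled NgBR overexpression, from NIH3T3 cells stably transfected with the plasmid pIRES-NgBR, which carries an HA tag, and selected with G418. Both groups grew in DMEM with antibiotics and 10% calf serum, and 1.5 micrograms of total RNA entered each library. Whether the transfected line was 1 clone or a pool, its time in culture, and the species of the NgBR insert are not stated, and no line with an empty vector was analysed here. The labels do not say whether the libraries numbered 1 to 3 came from separate cultures, so the p-values rest on a spread between libraries that may be technical only.

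Nus1, which encodes NgBR, had 211 ± 22.8 CPM in wild type and 178 ± 11.0 CPM in the other group (mean ± SD, n = 3; CPM is the count scaled to the library's total after TMM adjustment). Its log2 fold change was -0.24 with an adjusted p of 0.786 (edgeR quasi-likelihood test), so the libraries of this group are called the labelled libraries. Whether reads of the transgene would be counted in Nus1 is not known. The wild-type libraries held 29515072 to 35511769 counts and the labelled libraries 7369961 to 10358381, a 3.50-fold difference in mean depth. All 17 genes of a fibroblast marker list were tested, and their summed level was 23951 to 28546 CPM in wild type and 23773 to 36257 CPM in the labelled libraries. Among them the matrix proteoglycan gene Lum fell, with 2261 counts in wild type and 1 in the labelled libraries, and the surface protease gene Fap rose from 0.114 ± 0.0253 to 1.21 ± 0.524 CPM. Fap was not called without wild-type library 1 (edgeR adjusted p 0.0645) or labelled library 3 (0.0718). At its wild-type level Fap passed the filter through the labelled libraries, so its call is not support for a change of the list. Of 12651 genes tested, 429 were called at an adjusted p under 0.05, and the median log2 fold change was -0.01. These are bulk samples, in which fewer cells of a type and less RNA per cell cannot be told apart.

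Homeodomain factors bind AT-rich DNA through a helix-turn-helix fold, and members of the POU, LIM, paired and NK families combine it with other domains. During development they mark regions and neuron classes: POU class 3 factors act in neural progenitors and cortical neurons, POU class 4 factors in sensory neurons, Pax6 in the eye and forebrain, Lmx1b in dopaminergic and serotonergic neurons and in limb patterning, and Nkx2-1 in the ventral forebrain, thyroid and lung. Foxp2, Bcl11a and Sall1 belong to the forkhead and zinc finger families and also act in neurons, blood cells, kidney and limb. In many cells outside these lineages such genes are silent and carry the Polycomb mark on CpG-rich promoters.

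All 10 factors were close to silent in wild-type cells, at mean levels of 0.0301 to 1.17 CPM, and were 13.4- to 45.7-fold higher in mean CPM in the labelled libraries. Every labelled library lay above every wild-type library for 10 of the 10, an order that 9.21% of all tested genes shared, while 9.37% had the opposite order. All 10 passed the filter on low counts. At these wild-type levels all but Pou4f1 did so through the labelled libraries. All 10 were among the genes called, a rule met by 3.39% of tested genes in either direction and by 2.04% in the higher direction. Since the genes were picked from this comparison, nothing is read from those counts. The fitted log2 fold changes ran from 3.75 for Foxp2 to 5.48 for Pou3f2 with a median of 4.55, and 0.569% of tested genes had a log2 fold change of at least that of Foxp2.

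**Figure D1:**
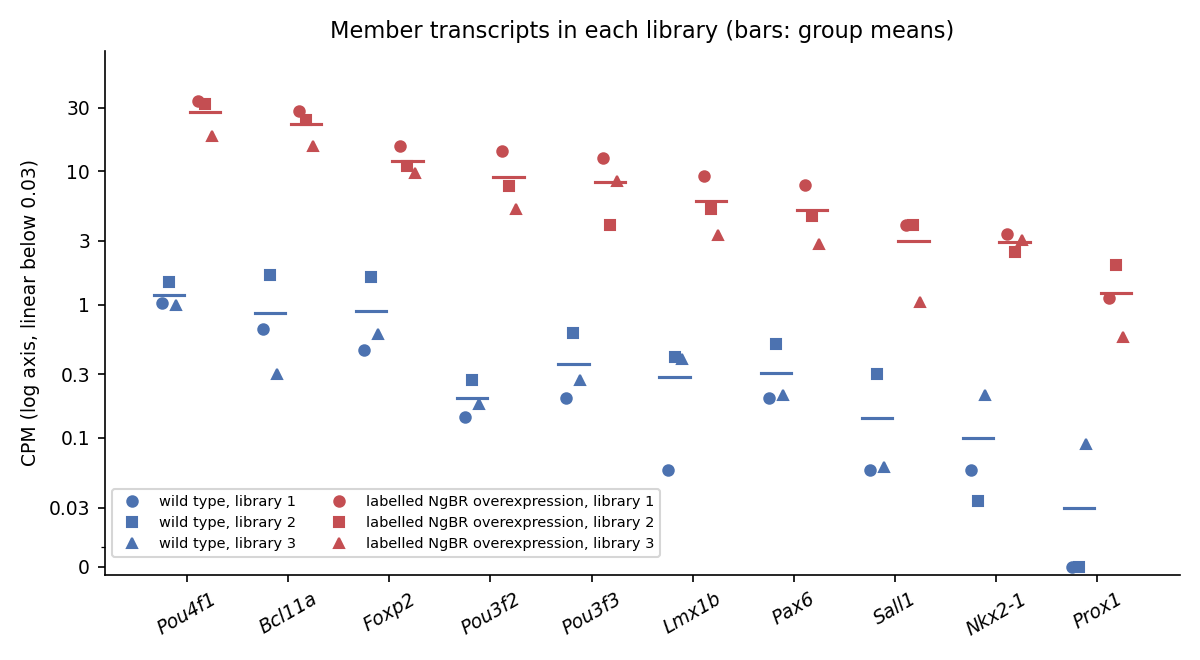
CPM of the 10 factors in each of the 6 libraries on a log axis that is linear below 0.03, with blue for wild type, red for the libraries labelled NgBR overexpression, a marker shape for each library number and a bar for each group mean (n = 3). The red points lie above the blue points for each gene, and the lowest red point is Prox1 in labelled library 3 at 0.573 CPM.

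Pou4f1 (also Brn3a, chr14:104461676-104467999, minus strand, mm10), a POU class 4 factor of sensory neurons, had the highest level. Wild-type libraries 1, 2 and 3 held 36, 44 and 33 counts of it, and labelled libraries 1, 2 and 3 held 239, 324 and 191, although they were shallower. In CPM these were 1.03, 1.49 and 0.993 against 33.5, 32.03 and 18.2. The groups lay far apart, with labelled library 3 the lowest of its group, and the log2 fold change was 4.57 with a standard error of 0.35. The 250 bases before its annotated start are shown because they are the most CpG-dense of the 9 genes with a RefSeq promoter entry (GRCm38.p6, chr14:104468000-104468249, minus strand), with each CG in capitals, 47 in all.
Pou4f1: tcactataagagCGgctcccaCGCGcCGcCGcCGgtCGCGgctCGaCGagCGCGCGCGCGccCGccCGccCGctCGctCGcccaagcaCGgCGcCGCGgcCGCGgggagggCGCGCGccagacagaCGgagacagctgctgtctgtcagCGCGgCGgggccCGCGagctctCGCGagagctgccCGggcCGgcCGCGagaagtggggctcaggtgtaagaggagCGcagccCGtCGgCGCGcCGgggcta

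The intronless POU class 3 genes Pou3f2 (Brn2, chr4:22482780-22488366, minus strand) and Pou3f3 (Brn1, chr1:42695768-42703176, plus strand) act together in cortical progenitors. Pou3f2 had 5, 8 and 6 counts in wild type and 101, 78 and 55 in the labelled libraries, or 0.143, 0.270 and 0.180 CPM against 14.2, 7.71 and 5.25 CPM. Pou3f3 had 7, 18 and 9 counts against 90, 40 and 88, or 0.200, 0.609 and 0.271 CPM against 12.6, 3.95 and 8.40 CPM. Both were highest in labelled library 1, but they differed in which labelled library was lowest, library 3 for Pou3f2 and library 2 for Pou3f3. The log2 fold changes were 5.48 (SE 0.51) and 4.52 (SE 0.57), and no wild-type library reached a labelled one for either gene. The 250 bases before each start are shown because these windows, with that of Lmx1b, hold more than 1 copy of the CCAAT box, in capitals on either strand (CCAAT or ATTGG), 2 in Pou3f2 and 3 in Pou3f3 (GRCm38.p6, chr4:22488367-22488616, minus strand, and chr1:42695518-42695767, plus strand).
Pou3f2: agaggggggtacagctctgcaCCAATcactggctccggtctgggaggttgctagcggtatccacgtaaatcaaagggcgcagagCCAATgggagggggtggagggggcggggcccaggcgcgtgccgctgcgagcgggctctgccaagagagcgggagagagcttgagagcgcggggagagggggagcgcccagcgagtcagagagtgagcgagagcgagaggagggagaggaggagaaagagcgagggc
Pou3f3: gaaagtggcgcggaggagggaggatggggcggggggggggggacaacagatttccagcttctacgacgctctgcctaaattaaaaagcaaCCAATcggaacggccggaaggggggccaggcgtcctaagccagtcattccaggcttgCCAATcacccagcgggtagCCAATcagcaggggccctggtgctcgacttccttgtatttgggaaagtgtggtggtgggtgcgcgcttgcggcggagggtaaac

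Among the other homeodomain genes, Lmx1b (chr2:33560965-33640511, minus strand), a LIM factor, had 2, 12 and 13 counts in wild type and 66, 53 and 35 in the labelled libraries, or 0.0572, 0.406 and 0.391 CPM against 9.25, 5.24 and 3.34 CPM. Wild-type library 1 stood below the other two, and the groups did not overlap (log2 fold change 4.36, SE 0.65). Its promoter window is printed with the 2 copies of the CCAAT box in capitals (GRCm38.p6, chr2:33641099-33641348, minus strand).
Lmx1b: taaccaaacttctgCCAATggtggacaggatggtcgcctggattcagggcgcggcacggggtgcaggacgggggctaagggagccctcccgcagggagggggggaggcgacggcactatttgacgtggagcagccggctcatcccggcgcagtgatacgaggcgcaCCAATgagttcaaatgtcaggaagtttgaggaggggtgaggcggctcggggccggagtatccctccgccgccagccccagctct

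Pax6 (chr2:105668900-105697364, plus strand), a paired-class factor, had 7, 15 and 7 counts against 56, 47 and 30, or 0.200, 0.507 and 0.211 CPM against 7.85, 4.65 and 2.86 CPM. Wild-type library 2 and labelled library 1 were the highest of their groups, and the log2 fold change was 4.04 (SE 0.55). Nkx2-1 (chr12:56531958-56536908, minus strand), an NK factor also called Ttf1, had 2, 1 and 7 counts against 24, 25 and 32, or 0.0572, 0.0338 and 0.211 CPM against 3.37, 2.47 and 3.05 CPM. It was the most even of the 10 over the labelled libraries, with a coefficient of variation of 15.3%, and its ratio of pooled counts per depth was 28.6 with an exact 95% interval of 14.8 to 61.8 for counting error only. Prox1 (chr1:190118035-190170714, minus strand), an atypical homeodomain factor that sets lymphatic endothelial identity, was the lowest, with 0, 0 and 3 counts against 8, 20 and 6. The 3 wild-type counts all came from library 3, and the ratio of pooled counts per depth was 40.0 with an exact 95% interval of 12.6 to 203.4.

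Foxp2 (chr6:14901349-15441977, plus strand), a forkhead factor linked to speech circuits, had 16, 48 and 20 counts against 110, 110 and 101, or 0.458, 1.62 and 0.602 CPM against 15.4, 10.9 and 9.64 CPM. Wild-type library 2 was the highest of its group, and the log2 fold change was the lowest fitted for the 10, 3.75 (SE 0.49). Bcl11a (chr11:24078056-24174123, plus strand), a zinc finger repressor of fetal globin genes that also acts in neurons, had 23, 49 and 10 counts against 203, 246 and 161, or 0.658, 1.66 and 0.301 CPM against 28.5, 24.3 and 15.4 CPM. Wild-type library 2 was again the highest of its group, with a log2 fold change of 4.71 (SE 0.57). Sall1 (chr8:89027235-89044162, minus strand), a zinc finger factor of kidney and limb development, had 2, 9 and 2 counts against 28, 40 and 11, or 0.0572, 0.304 and 0.0602 CPM against 3.93, 3.95 and 1.05 CPM. Labelled library 3 held the lowest level of Sall1, and the log2 fold change was 4.38 (SE 0.76).

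Levels were compared between genes per kilobase of merged exons, which does not allow for the isoform used. In the labelled libraries Pou4f1 stood at 5.98 ± 1.803 CPM per kb, and its lowest library, 3.90, lay above the highest Bcl11a library, 2.16. Bcl11a at 1.72 ± 0.508, Pou3f2 at 1.62 ± 0.824, Lmx1b at 1.22 ± 0.619, Pou3f3 at 1.12 ± 0.585 and Nkx2-1 at 1.04 ± 0.160 CPM per kb followed, and the libraries of each gene overlapped those of the next. Foxp2 at 0.733 ± 0.186, Sall1 at 0.565 ± 0.317 and Pax6 at 0.438 ± 0.216 CPM per kb came after these, again with libraries that overlapped from Nkx2-1 to Foxp2 and on to Sall1 and Pax6. Prox1 was last at 0.146 ± 0.0843 CPM per kb. Its highest library (0.236) lay just under the lowest Pax6 library (0.245) but above the lowest Sall1 library (0.199). In wild type the order began with Pou4f1 at 0.250 ± 0.0590 and Bcl11a at 0.0662 ± 0.0533 CPM per kb and ended with Prox1 at 0.00359 ± 0.00621 CPM per kb.

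Most of the 10 genes had the same highest or lowest library within a group. Labelled library 1 was the highest of its group for 8 of the 10, against 25% of all tested genes, and labelled library 3 was the lowest for 8 of the 10, against 34.6%. Wild-type library 2 was the highest of its group for 8 of the 10, against 43.2%. The summed level of the 10 was 2.86, 6.90 and 3.31 CPM in wild type and 129.7, 97.2 and 67.8 CPM in the labelled libraries. The libraries also differed in how counts followed exonic length. The Spearman correlation of a gene's deviation from its mean over all libraries with length was 0.242 in wild-type library 2, 0.347 in labelled library 2 and -0.467 in labelled library 3. With an offset for length the mean log2 level of the 10 stood above the wild-type mean by 4.58, 3.99 and 3.71 in labelled libraries 1 to 3, and by 4.56, 4.11 and 3.55 without it, so the order held.

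The direction, which the choice of the genes fixes, is no sign of stability, and the calls of the 10 under the alternatives are likewise only described. Prox1 was not called without wild-type library 1, wild-type library 2, labelled library 1 or labelled library 2, or without both libraries numbered 2, and Sall1 was not called without labelled library 1 or labelled library 2. Leaving out 1 wild-type library moved the log2 fold change by over 1.5 times in fold for 5 genes. Without wild-type library 2 it was 5.54 for Bcl11a, 5.50 for Sall1 and 4.48 for Foxp2, and without wild-type library 3 it was 5.80 for Nkx2-1 and 7.51 for Prox1, which then had no wild-type count. Over all tested genes the share called was 3.41% with RLE factors, 3.38% without composition factors, 3.27% without a filter, 3.24% with at least 1 CPM in 3 libraries, 5.68% with a replicate block, 2.63% with thinned counts and 3.97% with the length offset. It was 4.53% without both libraries numbered 2, and 2.07%, 2.66%, 2.38%, 1.66%, 2.77% and 2.02% without wild-type library 1, 2 or 3 and labelled library 1, 2 or 3. With each library thinned to the depth of the shallowest, the wild-type libraries together held 19 counts of Pou4f1 and 20 of Bcl11a, and 1 to 13 of the others, against 595 and 506 of these 2 genes in the labelled libraries.

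**Figure D2:**
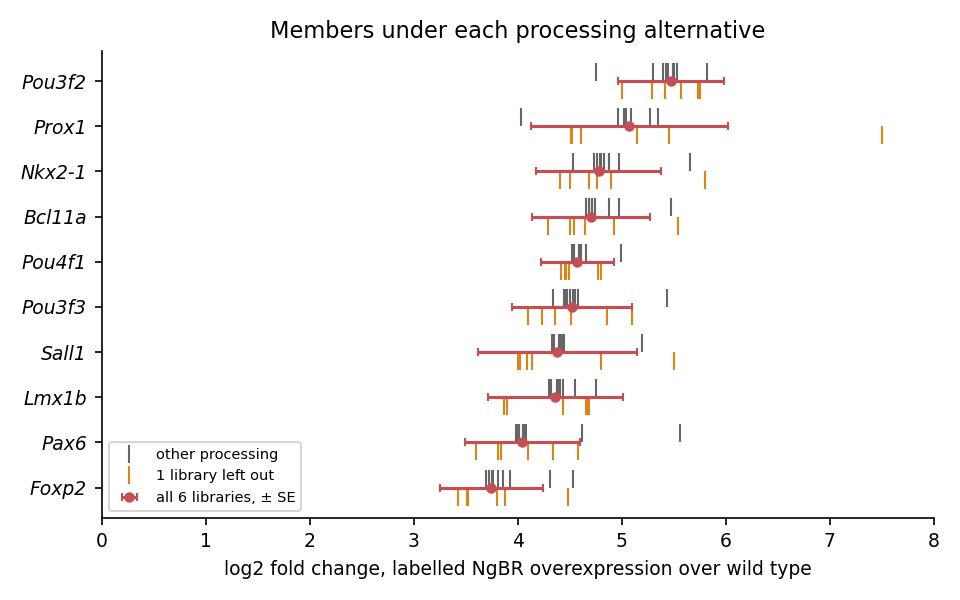
Log2 fold change of the labelled libraries over wild type for each of the 10 factors with all 6 libraries (red, ± standard error), with 1 library left out (orange) and under the other processing alternatives (grey). No value fell below 3 on this scale, and the value farthest to the right is Prox1 without wild-type library 3.

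The transcripts of the 10 genes shared little sequence with those of other genes. Of the distinct 50-base words of each gene's transcripts, between 0% in Sall1 and 1.68% in Bcl11a occurred in transcripts of another gene. The words shared by Bcl11a all lay in its antisense gene 4930538E20Rik, and the 23 of 4623 words shared by Pou4f1 all lay in Pou4f2, and neither partner had a count in any library. The annotation places 7 genes over 5 of the 10, of which 6 had no count in any library. The exception, the antisense gene Gm26973 at Nkx2-1, had 2 counts in wild type and 18 in the labelled libraries, was removed by the filter and was called higher without the filter, and with no strand setting stated, a read where the genes overlap could belong to either.

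Relatives of the 10 factors from the same families, such as other POU, Pax, LIM, Nkx2, Foxp and Sall genes, were examined next. Of 45 such genes 11 were tested and 0 were called by edgeR, beside 3.39% of all tested genes (2.04% higher and 1.35% lower). At an unadjusted p under 0.05 there were 2, Lhx9 with a log2 fold change of -1.03 (adjusted p 0.135) and Sall2 with -0.69 (adjusted p 0.312), both chosen for mention after their values were seen. DESeq2, which called 5.68% of all tested genes, called 1, Lhx9 as lower, and limma-voom, which called 3.24%, called 0. Among the 11, 5 had a positive and 6 a negative log2 fold change, with a median of -0.06. The most abundant were Foxp1 at 112 ± 82.6 against 152 ± 84.7 CPM, Foxp4 at 126 ± 20.7 against 105 ± 15.003 CPM, and Pou6f1 at 42.2 ± 1.83 against 48.5 ± 11.9 CPM, each with overlapping groups. Another 20 of the 45, among them Pou3f4, Pou4f2, Lmx1a, Nkx2-2 and Sall3, had 0 counts in the labelled libraries, which over the 3 together allows up to 0.108 CPM. Of these 20, 12 had 0 counts in wild type as well. Prox2 stood at 2.07 ± 0.169 against 1.94 ± 0.283 CPM, and Bcl11b had 7 counts in wild type and 4 in the labelled libraries. The difference between the 10 genes and their relatives was not tested, since the 10 were chosen for their change.

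**Figure D3:**
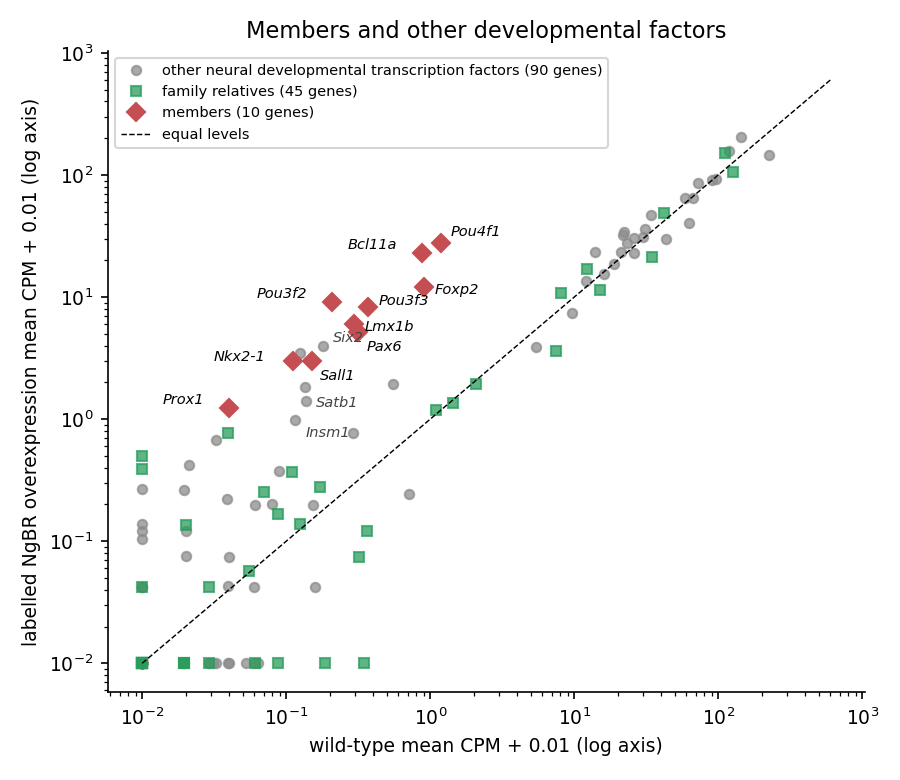
Mean CPM plus 0.01 in wild type (horizontal) and in the libraries labelled NgBR overexpression (vertical), both on log axes, for the 10 factors (red), 45 family relatives (green) and 90 other neural developmental factors (grey), with the line of equal levels dashed. The red points form a group above the line at wild-type means of 0.0301 to 1.17 CPM, where Six2, Satb1 and Insm1 also lie, and genes above 10 CPM stay near the line.

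Of 90 other neural developmental transcription factors 31 were tested and 4 rose, or 12.9% beside 3.39% over all tested genes, and none of the 31 fell. Of the 4, the values of 3 are given here: the homeobox gene Six2 (3, 8 and 5 counts against 53, 19 and 27), the zinc finger gene Insm1 of neuroendocrine cells (3, 5 and 2 against 7, 9 and 11) and the chromatin organiser Satb1 (3, 6 and 3 against 15, 7 and 15). The log2 fold changes of these 3 were 4.502, 3.17 and 3.41, with edgeR adjusted p of 0.00719, 0.0171 and 0.018. Like the 10 genes other than Pou4f1, they passed the filter through the labelled libraries, having under 1 CPM in wild type. The number called is therefore not support for a change of the list. Six2 remained called without any 1 library. Insm1 lost its call without labelled library 1 (adjusted p 0.0797) or 3 (0.0820) and was below the filter without any 1 wild-type library. Satb1 lost its call without wild-type library 1 (0.0856) or 3 (0.0686) or labelled library 1 (0.101) or 3 (0.0786). The median log2 fold change of the 31 was 0.22, and 37 of the 90 had 0 counts in the labelled libraries, including the proneural genes Neurog1, Neurog2 and Atoh1. Of these 37, 27 had 0 counts in wild type as well.

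Genes of differentiated neurons were mostly near or below the filter. Of 33 neuronal genes 9 were tested and 1 rose (2.04% of all tested genes did): Syt1, the calcium sensor of synaptic vesicle release, had 2 counts in wild type and 17 in the labelled libraries, a ratio of pooled counts per depth of 29.98 with an exact 95% interval of 7.12 to 267.5 (edgeR adjusted p 0.0308). Syt1 passed the filter through the labelled libraries, so its call is not support for a change of the list. Leaving out any 1 library put Syt1 below the filter. Chosen after their values were seen, the dendritic gene Map2 had 2.66 ± 1.001 against 7.98 ± 2.21 CPM (adjusted p 0.0562), and the vesicular glutamate transporter gene Slc17a7 had 71 counts against 1 (adjusted p 0.0564). DESeq2 called both, in opposite directions. The most abundant neuronal genes were Elavl2 at 23.4 ± 22.1 against 27.9 ± 8.30 CPM, Syn1 at 11.6 ± 1.29 against 18.4 ± 8.11 CPM and Celf4 at 11.7 ± 0.457 against 16.3 ± 0.370 CPM, none of them called. The summed level of the list was 44.6 to 81.4 CPM in wild type and 68.8 to 93.9 CPM in the labelled libraries. In the latter 9 of the 33 were at 0 counts, among them Dcx, Nefl, Gad1, Gad2, Chat, Scn9a, Calb1 and Calb2. Of these 9, 4 had 0 counts in wild type as well.

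Markers of the other tissues in which the 10 factors act were examined by list. Among 12 neural progenitor and glial markers 5 were tested and 1 was called (3.39% of all tested genes were): Nes, which encodes the intermediate filament nestin of neural progenitors, fell from 10.6 ± 3.69 to 0.574 ± 0.0878 CPM (log2 fold change -4.18, edgeR adjusted p 0.00118), and it remained called under each alternative. Nes was the exception in direction: 4 of the 5 tested markers had a positive log2 fold change, with a median of 0.35 over the 5. At an unadjusted p under 0.05 by edgeR there were 3 of the 5, and DESeq2 also called the marker Mbp higher. This list summed to 124 to 158 CPM in wild type and 135 to 187 CPM in the labelled libraries. None of 13 thyroid and lung epithelial markers passed the filter, and their summed level was 1.05 to 1.45 CPM in wild type and 0.988 to 1.62 CPM in the labelled libraries, with Sftpa1, Sftpc and Scgb1a1 at 0 counts in the latter. Of 8 lymphatic and blood endothelial markers 1 was tested, Vwf at 1.39 ± 0.209 against 1.999 ± 1.21 CPM, and the list summed to 1.96 to 2.66 against 3.16 to 4.21 CPM with the lymphatic marker Lyve1 at 0 counts in the labelled libraries. None of 12 lymphoid and erythroid markers was tested, and they summed to 0.270 to 0.662 against 0 to 1.15 CPM. Of 8 lens and retinal markers 1 was tested, Cryab at 49.5 ± 25.2 against 49.1 ± 22.6 CPM, the list summed to 20.8 to 65.0 against 25.4 to 70.6 CPM, and Cryaa, Cryba1, Crygc and Mip were at 0 counts in the labelled libraries.

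Regulators known to hold such genes silent were expressed in both groups. All 42 genes of a list of REST complex, Polycomb and DNA methylation genes were tested, and 1 was called, or 2.38% beside 3.39% over all tested genes. This was Jarid2, a subunit that recruits the Polycomb repressive complex PRC2, which rose from 13.0 ± 2.98 to 35.1 ± 11.6 CPM (log2 fold change 1.43, edgeR adjusted p 0.0331). Jarid2 was no longer called when any 1 of the 6 libraries was left out, with adjusted p of 0.0561 to 0.0999. The repressor of neuronal genes Rest had 175 ± 56.0 against 211 ± 62.4 CPM (log2 fold change 0.27, adjusted p 0.861), and the maintenance methyltransferase Dnmt1 had 203 ± 90.7 against 284 ± 51.3 CPM (0.48, adjusted p 0.741). The Polycomb gene Cbx6 had 415 ± 23.1 against 441 ± 91.5 CPM (adjusted p 0.960), a log2 fold change of 0.09 that was -0.0196 without labelled library 2. Of the 42, 35 had a positive log2 fold change, with a median of 0.20. Whether these levels bear on those of the 10 factors was not tested.

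Genes beside the 10 loci were examined next. Of 96 genes within 500 kb of one of the 10, 31 were tested and 2 rose, or 6.45% beside 2.04% of all tested genes called higher, with a median log2 fold change of -0.04 over the 31. Snx20, a sorting nexin gene 391 kb from Sall1, rose from 0.375 ± 0.245 to 3.95 ± 0.726 CPM (log2 fold change 3.36, edgeR adjusted p 0.0103), and without labelled library 3 its adjusted p was 0.0507. At its wild-type level Snx20 passed the filter through the labelled libraries, so the number called is not support for a change near the 10 factors. Angptl2, a secreted angiopoietin-like gene 313 kb from Lmx1b, rose from 184 ± 26.2 to 402 ± 87.8 CPM (1.13, adjusted p 0.0495), and lost its call without any 1 of the 6 libraries (adjusted p 0.0779 to 0.214). Within 200 kb 12 genes were tested and edgeR, DESeq2 and limma-voom each called 0, with 0 at an unadjusted p under 0.05 by edgeR. Without the filter on low counts 4 genes within 500 kb were called, among them the antisense gene Gm26973 that overlaps Nkx2-1. The nearest tested neighbours were Elp4, 3.7 kb from Pax6, at 17.6 ± 1.16 against 14.5 ± 0.925 CPM, and Rnf219, 9.5 kb from Pou4f1, at 24.6 ± 6.41 against 22.5 ± 7.001 CPM.

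**Figure D4:**
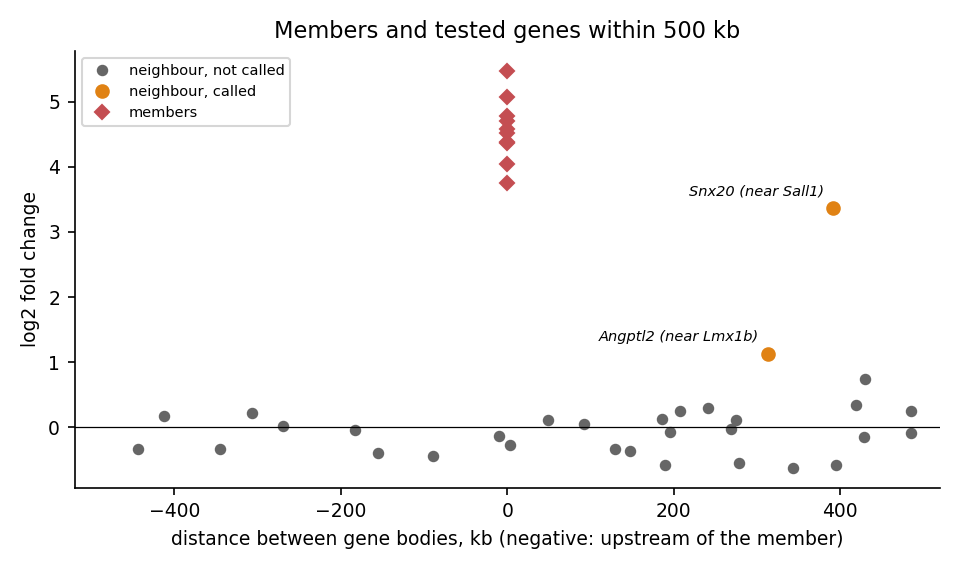
Log2 fold change of the 31 tested genes within 500 kb of the 10 factors against the distance between gene bodies in kb, negative for genes upstream (grey not called, orange called), with the 10 factors at distance 0 (red). The 12 neighbours within 200 kb lie between -0.57 and 0.12, while the 10 factors lie between 3.75 and 5.48.

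The promoters of the 10 genes were richer in CpG than most promoters. RefSeq windows from 250 bases before to 50 bases after an annotated start were found for 9 of the 10, all but Foxp2, with 13 windows in all. Of these 13 windows 10, or 76.9%, had a GC content above 50% and an observed over expected CpG ratio above 0.6, against 33.3% of all 32851 windows, 38.0% of 50 windows of the family relatives and 54.8% of 84 windows of the other neural factors. The median CpG ratio was 0.766 for the 13 windows and 0.384 over all. That of Pou4f1, printed above, was the highest at 1.244, and the windows of Nkx2-1 (0.559), the second start of Prox1 (0.568) and the second start of Pax6 (GC content 46.3%) missed the criteria.

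Short words were counted on both strands of the same windows. The CCAAT box (CCAAT) occurred in 7 of the 13, or 53.8%, against 37.4% of all windows, and the GC box GGGCGG in 9, or 69.2%, against 35.7%. The octamer ATGCAAAT bound by POU factors occurred in none of the 13 (1.7% of all windows), the homeodomain core TAATTA in none (5.3%) and the TATA word TATAAA in 1 (7.7% against 13.6%), and none of these words contains another. A match is a description of letters, not of a binding site, and no test was made of these shares.

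**Figure D5:**
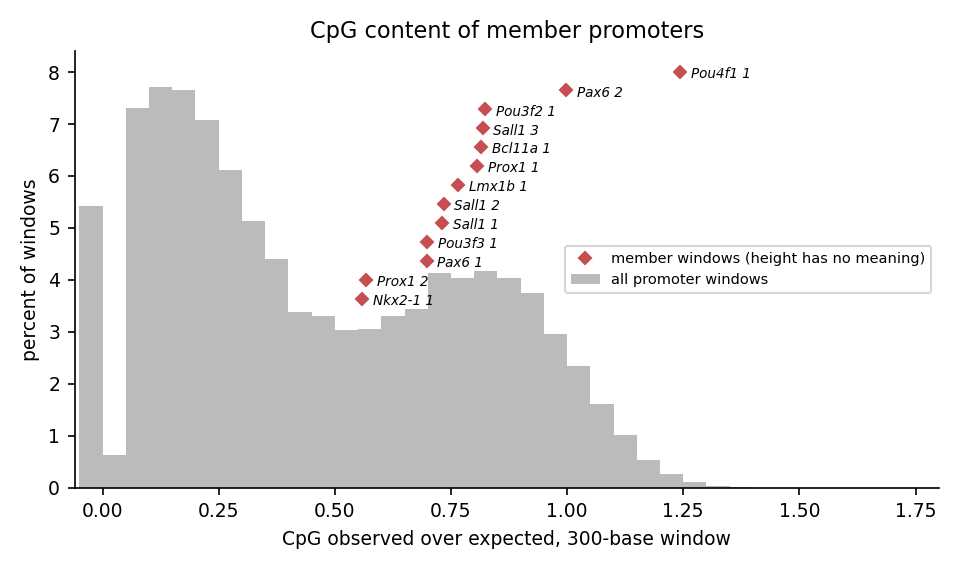
Histogram of the observed over expected CpG ratio in 32851 promoter windows of 300 bases (grey, percent of windows, with the bar left of 0 holding windows without a CpG), and the ratio of the 13 windows of the 10 factors (red, labelled by gene and start, height without meaning). The red points lie from 0.559 to 1.244, to the right of the median of all windows, 0.384.

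Outside the lists, the named genes whose profile over the 6 libraries lay nearest to the mean profile of the 10 were Nrxn3, Slitrk5, Dmd, Fhl1 and Slain1. The root mean square difference in log2 CPM, after subtraction of each gene's wild-type mean, was 0.237, 0.239, 0.323, 0.346 and 0.410 over 6 libraries, while the 10 factors themselves lay at 0.313 (Pou4f1) to 0.792 (Prox1). Nrxn3, a presynaptic adhesion receptor, had 11, 20 and 8 counts in wild type and 68, 76 and 58 in the labelled libraries. Slitrk5, a neuronal transmembrane adhesion protein, had 11, 28 and 16 against 78, 118 and 65. Dmd, which encodes dystrophin, had 10, 31 and 14 against 119, 113 and 108, and Fhl1, a LIM-only protein of muscle, had 64, 81 and 63 against 415, 352 and 465. Slain1, a microtubule-associated gene, lies 757 kb from Pou4f1 and had 1, 1 and 2 against 22, 15 and 22. These genes were ranked by likeness to the 10, so their own change is given without a test.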

How the data were processed

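RNA from 3 wild-type NIH3T3 libraries and 3 libraries labelled NgBR overexpression was sequenced after a SMARTer mRNA-seq preparation, per the labels' protocols. The authors deposited a table of raw counts for each gene, made with HISAT2 2.0.5 and featureCounts 1.5.0-p3 on mm10, per the submitters' processing notes, which also name DESeq2. The annotation release, strand setting and filters are not stated in these sources, so reads of antisense or overlapping genes may be shared. Positions and exonic lengths came from GENCODE vM21, which held 97.8% of the 35275 identifiers.

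The quasi-likelihood F test of edgeR 4.0.16 (R 4.3.3) was applied to these counts with TMM scaling and the group as the single term. filterByExpr kept 12651 genes, p-values were adjusted over all of them by Benjamini-Hochberg, and genes were called below 0.05. CPM used TMM-scaled totals. For genes with few counts the ratio of pooled counts per depth carries an exact 95% interval, which covers only counting error, as the labels name no molecular identifiers. On simulated counts of 12473 genes for this comparison, 87% of 100 genes changed 4-fold and 10% of 100 genes changed 2-fold were recovered, with 7 false among 104 calls. The changed genes were drawn only from those above a minimum expected count in the shallowest library, so these rates do not cover genes below it.

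The 10 genes and all lists were chosen with earlier results of these data known. Named genes were the 10, Nus1, up to 6 called genes of each list, the 3 most abundant genes of a list with under 3 calls, called genes within 500 kb and the 5 nearest profiles. Alternatives were RLE factors, no composition factors, other filters, DESeq2 1.42.0, limma-voom 3.58.1, a replicate block, thinned counts, an offset for exonic length, and leaving out each library. Leaving out both libraries numbered 2 and a window of 2000 kb were added after seeing the data. Promoters came from RefSeq on GRCm38.p6. Knockdown lines named in the protocols were not analysed here, and a few genes of the lists are counted but not reported here by name.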

Additional observations from a re-analysis of the deposited data

How the results depend on the processing

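The 10 factors gave 157 alternative values, of which 12 moved by more than 1 SD of the libraries. Of the 157, 0 changed direction, which the choice of the genes fixes and which is no sign of stability. Beyond those given with the leave-one-out values, the log2 fold change was 5.65 for Nkx2-1, 5.56 for Pax6, 4.75 for Pou3f2 and 4.99 for Pou4f1 with thinned counts, and 4.54 for Foxp2, 5.43 for Pou3f3 and 4.03 for Prox1 without both libraries numbered 2. Thinned counts left Prox1 and Sall1 below the filter, and at least 1 CPM in 3 libraries left out Prox1. Depth limits the low genes, since the labelled libraries were 3.50-fold shallower.

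Genes called higher numbered 258, with 446 by DESeq2 and 141 to 209 without 1 library. Genes called lower numbered 171, with 302 without a filter, 273 by DESeq2, 263 without both libraries numbered 2 and 84 to 165 without 1 library. With a replicate block the counts were 418 higher and 301 lower. The correlations of deviations of same-numbered libraries were 0.01, 0.34 and 0.43 for numbers 1, 2 and 3. Wild-type libraries 2 and 3 correlated best with the labelled library of their own number, and the crossed pairs of 2 and 3 were at -0.37 and -0.40. Wild-type library 1 correlated best with labelled library 3 (0.19), so the numbers were not taken as a pairing. The block changed no call of the 10 factors, but called 3 neuronal genes (Map2, Slc17a7 and Syt1), 2 regulators (Jarid2 and Pcgf5) and 5 other neural factors.

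Calls among the family relatives were 3 of 33 tested without a filter and 1 of 11 by DESeq2. They were 1 of 11 without both libraries numbered 2 and 0 to 1 without 1 library. Among neuronal genes they were 4 of 29 tested without a filter, 0 with at least 1 CPM, 3 by DESeq2 and 2 by limma-voom. They were 0 with thinned counts, 2 with the length offset, 2 without both libraries numbered 2 and 0 to 1 without 1 library. Among the other neural factors they were 2 with at least 1 CPM, 1 with thinned counts, 7 without both libraries numbered 2 and 2 to 6 without 1 library. Among the silencing regulators they were 2 without a filter, 2 by DESeq2, 2 with the length offset, 2 without both libraries numbered 2 and 0 to 1 without 1 library. Among the neighbours they were 0 within 200 kb, 8 within 2000 kb, 1 without composition factors, 4 without a filter, 1 with thinned counts, 1 without both libraries numbered 2 and 0 to 2 without 1 library. The share called over all tested genes was 3.27% without a filter, 3.24% with at least 1 CPM or by limma-voom, and 2.63% with thinned counts. It was 5.68% by DESeq2, 3.97% with the length offset and 3.38% without composition factors. Without both libraries numbered 2 it was 4.53%, and without 1 library 1.66% to 2.77%. Stricter filters and thinned counts left fewer genes to test, and the cause of the other shifts was not tested.

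Of 508 alternative values of the other named genes, 31 changed sign, all of genes not called, and 24 lost a call. Col1a2 was at 0.00254 with RLE factors and by DESeq2, 0.0047 with at least 1 CPM, 0.0144 with thinned counts and -0.17 to 0.0846 without 1 library. Cryab was at 0.0015 with RLE factors, 0.00175 by DESeq2, 0.00594 with at least 1 CPM, 0.0444 by limma-voom, 0.0412 with a replicate block, 0.11 with thinned counts and -0.38 to 0.30 without 1 library. Cspg4 was at -0.00549 without a filter and -0.20 to 0.57 without 1 library. Without 1 library Elavl2 ran from -0.11 to 1.39, Fn1 from -0.49 to 0.31, Foxp1 from -0.13 to 1.24, Vwf from -0.0933 to 0.80 and Cbx6 from -0.0196 to 0.25, and Cbx6 was at -0.0601 without both libraries numbered 2.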

Other observations

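Without the filter on low counts, 33 family relatives were tested and 3 were called higher by edgeR, beside 3.27% of all tested genes in either direction. Pou3f1 had 0 counts in wild type and 10 in the labelled libraries, Nkx2-4 had 0 and 12, and Pax2 had 3 and 21. Set against 3 counts over the wild-type group, the observed level was 11.8-fold higher for Pou3f1 and 14.1-fold higher for Nkx2-4. These ratios leave out the counting error of the labelled counts, so they are not lower limits. Isl1, which the filter left out, had 35 counts in wild type and 3 in the labelled libraries, a value chosen after it was seen. Pou3f1, of the same POU class as Pou3f2 and Pou3f3, had counts in each labelled library, while Pou3f4 had 0 counts in the labelled libraries.

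In the wider window of 2000 kb, added after seeing the data, 187 genes were tested and 8 rose, or 4.28%, beside 2.04% of all tested genes called higher. Chosen after their values were seen, Kctd12, whose protein binds GABA-B receptors, lay 1479 kb from Pou4f1 and had 55, 39 and 51 counts in wild type and 617, 355 and 236 in the labelled libraries, with labelled library 1 highest as for Pou4f1. Slain1, also given for its profile, is another of the 8, at 757 kb from Pou4f1. Mpped2, 996 kb from Pax6, had 5 counts in wild type and 44 in the labelled libraries, and the transcription factor gene Tfec, 1391 kb from Foxp2, had 48 and 113. Like Snx20 and Slain1, Mpped2 and Tfec passed the filter through the labelled libraries, so the number called in this window is not support for a change near these factors. Near Prox1, the potassium channel gene Kcnk2 had 6.11 ± 1.98 against 16.5 ± 2.68 CPM.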
